A study of Arabidopsis thaliana with 21 samples.

Results

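The regions described here were the 968 H2A.Z sites of *mbd9-1* seedlings that no WT H2A.Z peak touched, 24.3% of the 3981 *mbd9-1* sites. They were chosen by the peak lists themselves. A peak of an *mbd9-1* library was kept as reproduced when at least 50% of its length lay in a peak of another *mbd9-1* library, and reproduced peaks that overlapped by 200 bp or more were merged into sites. A site was then taken when not 1 of its bases lay under a peak of any of the 3 WT H2A.Z libraries, so the absence of WT peaks is the way in which the sites were picked and is not a result. The other 3013 *mbd9-1* sites, each with at least 1 base under a WT peak, served for comparison. So did the 3371 sites, of 7428 in WT, that were built in the same way from the WT lists and shared no base with an *mbd9-1* peak.

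H2A.Z is a variant of histone H2A that the SWR1 complex exchanges into nucleosomes. In plant genes it is known to sit mainly just downstream of the transcription start site (TSS), and to spread over the bodies of some genes that respond to the environment and are little transcribed. MBD9 is a nuclear protein with a methyl-CpG-binding domain, PHD fingers and a bromodomain, and the study asked which H2A.Z sites depend on it. Acetylation of the tail of histone H4 (H4Ac) is generally found near the start of transcribed genes.

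All plants were *Arabidopsis thaliana* of the Col-0 background, collected 6 days old and without roots, so every library averages the cells of the shoot. The H2A.Z lists came from 3 *mbd9-1* libraries, whose plants carry a mutant allele of MBD9, and 3 WT libraries, and 3 WT libraries gave the H4Ac lists. Each WT H4Ac library was made from the same chromatin as the WT H2A.Z library of its number. The *mbd9-1* H2A.Z lists held 5215 to 5733 peaks and the WT H2A.Z lists 6263 to 9260, while the H4Ac lists held 10439 to 12030. The lists give positions alone, with no height or read number, so the depth behind a site is unknown and a site without a WT peak is not shown to lack H2A.Z in WT. *mbd9-1* replicate 3 stood apart by its narrow peaks, with a median width of 381 bp against 587 to 668 bp in the other H2A.Z lists, and the number of sites, their place in genes and the changed test results are also given without it.

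The DNA of 5 of the sites shows how unlike they were in base composition. Each run is the 200 bp around the centre of a site, outside annotated UTRs, from the plus strand of the RefSeq TAIR10.1 genome, with CG dinucleotides in capitals because these carry the methylation for which the domain of MBD9 is named. AT4G09930 and M17 are the genes of the widest sites that all *mbd9-1* replicates supported, at chr4:6229712-6229911 and chr2:17206999-17207198. HAM3 has the widest site covered by H4Ac in every library, at chr4:57884-58083. The intergenic run at chr1:15011161-15011360 lies in the site farthest from any WT peak, and TSA1, at chr1:19521524-19521723, has a site that directly adjoins a WT peak.
AT4G09930: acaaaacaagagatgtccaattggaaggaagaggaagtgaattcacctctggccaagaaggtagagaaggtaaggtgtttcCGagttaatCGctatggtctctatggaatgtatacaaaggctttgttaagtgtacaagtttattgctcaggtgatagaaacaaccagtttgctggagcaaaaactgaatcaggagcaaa
M17: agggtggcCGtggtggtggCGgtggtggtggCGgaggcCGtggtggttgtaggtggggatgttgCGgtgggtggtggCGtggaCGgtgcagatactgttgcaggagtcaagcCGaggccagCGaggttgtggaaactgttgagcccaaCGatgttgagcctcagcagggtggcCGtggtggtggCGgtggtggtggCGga
HAM3: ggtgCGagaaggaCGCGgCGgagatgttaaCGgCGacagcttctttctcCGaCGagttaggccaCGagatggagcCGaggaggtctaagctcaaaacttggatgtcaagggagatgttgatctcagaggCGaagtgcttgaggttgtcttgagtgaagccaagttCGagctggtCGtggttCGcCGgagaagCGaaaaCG
Intergenic, chromosome 1: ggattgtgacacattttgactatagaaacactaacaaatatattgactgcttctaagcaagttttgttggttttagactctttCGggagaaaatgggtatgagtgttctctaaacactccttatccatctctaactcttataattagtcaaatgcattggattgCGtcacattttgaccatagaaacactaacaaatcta
TSA1: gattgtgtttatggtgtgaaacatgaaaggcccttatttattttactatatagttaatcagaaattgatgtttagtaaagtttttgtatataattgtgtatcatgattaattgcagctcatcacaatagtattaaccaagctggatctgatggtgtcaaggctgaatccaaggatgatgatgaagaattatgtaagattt
The runs of HAM3 and M17 hold 17 and 13 CG dinucleotides, those of AT4G09930 and the intergenic site 2 each, and that of TSA1 holds 0. Over all sites without WT peaks the mean was 7.32 ± 5.46 CG dinucleotides in 200 bp (SD over 968 sites), against 7.90 ± 4.84 at the other *mbd9-1* sites. The WT sites without *mbd9-1* peaks had 7.16, and windows of the same length over the whole genome had 4.65 ± 3.43. All kinds of site were thus richer in CG than the average window, and the sites without WT peaks spread most widely around their mean. The windows covered the whole genome, whereas most sites lay in protein-coding genes. No genic windows were measured, so the part of place in genes was not tested.

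Most sites without WT peaks rested on a pair of *mbd9-1* replicates. Replicates 1 and 2 alone gave reproduced peaks to 361 of the 968 sites (37.3%), against 1006 of the other 3013 *mbd9-1* sites (33.4%). Replicates 2 and 3 supported 150 (15.5%, against 9.13%) and replicates 1 and 3 supported 140 (14.5%, against 6.97%). Support from every replicate was found at 165 sites, or 17.0% (95% Wilson interval 14.8% to 19.5%), against 1129 of the other sites (37.5%, 35.7% to 39.2%). Over all *mbd9-1* sites this share was 32.5%. Both sets were drawn with these same lists, so the counts describe the sites and were not tested, and all such intervals cover counting error only. The remaining 152 sites came from reproduced peaks of 1 list, 77 of them of replicate 3, 42 of replicate 1 and 33 of replicate 2. At least 50% of each such peak lay in a peak of another library that added no reproduced peak to the site.

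**Figure D1:**
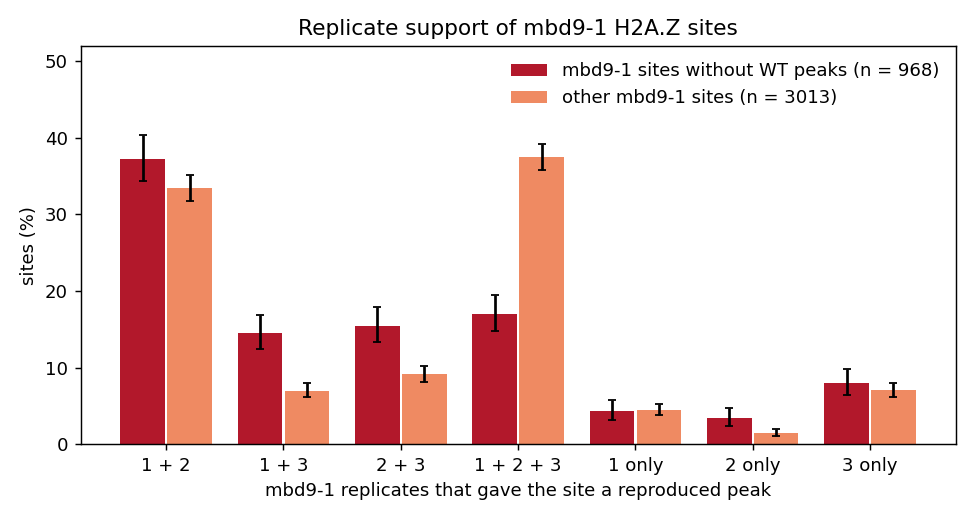
Percentage of sites (y axis) by the *mbd9-1* replicates whose reproduced peaks formed them (x axis), for the 968 sites without WT peaks and the other 3013 *mbd9-1* sites, with 95% Wilson intervals as error bars. Support by all replicates was 17.0% in the sites without WT peaks and 37.5% in the other sites.

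A reproduced peak of replicate 1 was present at 708 sites (73.1%), of replicate 2 at 709 (73.2%) and of replicate 3 at 532 (55.0%), where the shares over all *mbd9-1* sites were 80.1%, 79.5% and 59.2%. By coverage, 850 sites (87.8%) were covered over at least 50% of their length in 2 libraries and 118 (12.2%) in 3, where all *mbd9-1* sites had 79.5% and 20.5%. The sites were also narrow, with a median width of 634 bp and a range of 381 to 2383 bp, against a median of 839 bp at the other *mbd9-1* sites and 668 bp at the WT sites without *mbd9-1* peaks. A wider site touches a WT peak more easily, so the rule itself favours narrow sites. In the same way, the WT sites without *mbd9-1* peaks were narrower than the other WT sites, whose median was 918 bp. The lower end of 381 bp was the most common peak width of *mbd9-1* replicate 3. Leaving out an *mbd9-1* replicate and building the sites again gave 415 sites without replicate 1, 388 without replicate 2 and 615 without replicate 3. Of the 968 sites, 373, 352 and 615 shared a base with one of these. Without replicate 3, therefore, 63.5% of the sites were still found.

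The 10 widest sites supported by all *mbd9-1* replicates were all centred in protein-coding genes. The widest, of 2383 bp, was centred in an intron of AT4G09930, of the AIG1 (avirulence induced gene) family, and *mbd9-1* replicates 1, 2 and 3 covered 69.7%, 100% and 20.9% of it. The site of 1889 bp in M17 (AT2G41260), which encodes a glycine-rich late embryogenesis abundant protein, was covered to 100%, 83.5% and 31.5%. In VSR5 (AT2G34940), a vacuolar sorting receptor gene, the site of 1556 bp was the most evenly called, at 97.6%, 92.4% and 100%. Replicate 3 covered the smallest share of most of these sites, with VSR5, AT1G54860 and AT5G24080 as the exceptions. At AT1G54860, which encodes a GPI-anchored glycoprotein, replicates 1, 2 and 3 covered 59.3%, 53.8% and 85.6% of 1838 bp. At AT5G24080, a protein kinase gene, they covered 80.2%, 55.0% and 59.3% of 1714 bp. The others lay in AT3G44790 (TRAF-like family), AT5G37400, AGL89 (a MADS-box gene), AT1G25988 and TLP-3 (a thaumatin-like protein gene). No H4Ac library covered 50% of any of the 10 sites, and H4Ac peaks reached 2 of them, AT3G44790 with 34.6%, 24.7% and 31.5% in replicates 1, 2 and 3 and AGL89 with 28.2% in replicate 2.

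**Figure D2:**
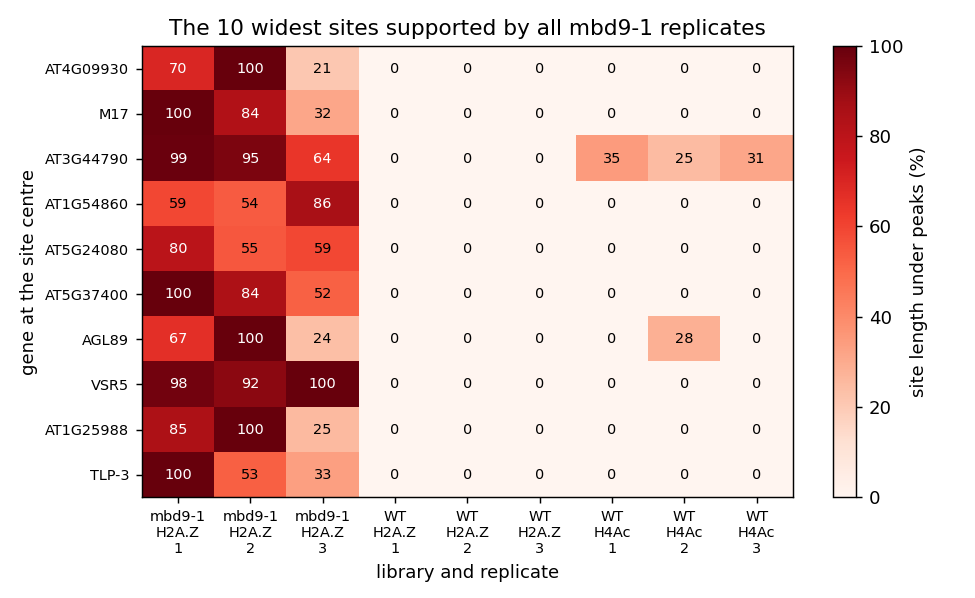
Percentage of each site's length under peaks (colour and printed value) in the 3 *mbd9-1* H2A.Z, 3 WT H2A.Z and 3 WT H4Ac libraries (columns), for the 10 widest sites supported by all *mbd9-1* replicates (rows, named by the gene at the centre). The WT H2A.Z columns are 0 by the choice of sites, and H4Ac covered at most 34.6% of a site, in AT3G44790.

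In the widest site of each pair of replicates, the replicate left over covered 0 except in CYCB2;4. GLR2.6 (AT5G11180), a glutamate receptor-like channel gene, had the widest site of replicates 1 and 2, 1857 bp long and covered to 76.6% and 100%, with 0 in replicate 3. For replicates 1 and 3 the widest site lay in the cyclin gene CYCB2;4 (AT1G76310). Its 1324 bp were covered to 100% and 38.1%, and a wider, unkept peak of replicate 2 covered 53.0%. For replicates 2 and 3 it was a site of 1567 bp centred in the 5′ UTR of LpxD1 (AT4G05210), a gene of the LpxA-like enzyme superfamily, with 100% and 55.7% covered and 0 in replicate 1.

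The distance to WT H2A.Z varied widely, up to 595637 bp. The nearest WT peak was a median of 1810 bp away, with quartiles of 627 and 4386 bp. It lay under 500 bp away for 205 sites (21.2%), 500 to 2000 bp for 297 (30.7%), 2000 to 10000 bp for 359 (37.1%) and at least 10000 bp for 107 (11.1%). Just inside the limit of the rule, 3 sites adjoined a WT peak with no base between them, in TSA1 (TSK-associating protein 1), AT2G35640 (homeodomain-like) and CPK20 (a calcium-dependent protein kinase gene). Just outside it, the sites in AT2G34360 (MATE efflux family), AT1G66540 (cytochrome P450) and ASY2 (a HORMA-domain gene) had 1, 2 and 9 bases under a WT peak and so belonged to the others. A few bases thus separated the sites on either side of the limit. Most of the other sites were far from it. WT peaks covered a median of 86.4% of their length, and under 50% of the length at 411 of them (13.6%).

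The longest distances were those of 3 sites on chromosomes 1 and 4. The farthest of all, 495 bp of intergenic DNA on chromosome 1, lay 595637 bp from a WT peak, and *mbd9-1* replicates 1 and 3 covered 100% and 77.0% of it. The next were a site in AT4G06534, 551182 bp away and supported by all replicates at 100%, 65.2% and 55.3%, and a site in the pseudogene AT1G40113, 443166 bp away and covered to 84.5% and 68.6% by replicates 1 and 3 and to 0 by replicate 2. The 495 bp of the farthest site were the most common peak width of *mbd9-1* replicate 1. Its printed run holds a nearly identical stretch near its start and near its end. Whether reads map uniquely there was not tested. At a finer scale, 268 of the 821 sites in protein-coding genes (32.6%) shared their gene with a WT peak elsewhere in it, where 38.8% of all protein-coding genes held a base of a WT peak. The rule barred WT peaks from the site itself, and gene lengths were not matched. These shares are therefore not on equal terms, and no result is drawn from their difference. A further limit was that 80 of the 968 sites (8.26%) lay under a part of some *mbd9-1* peak that itself ran into a WT peak, 66 of them among the 152 sites from 1 list. Without these 80, 888 sites remained.

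The sites without WT peaks lay mainly in genes, as did all H2A.Z sites, and their place depended on which *mbd9-1* replicates were used. The centre was in a protein-coding gene for 821 (84.8%, 82.4% to 86.9%), against 89.9% (88.8% to 90.9%) of the other *mbd9-1* sites and 88.7% (87.6% to 89.7%) of the WT sites without *mbd9-1* peaks. Pseudogenes held 62 (6.40%), against 5.34% and 2.49%. Outside genes, 34 sites lay up to 2000 bp ahead of a TSS, 15 up to 1000 bp past a gene end and 23 elsewhere, and the last class made up 2.38% of these sites against 0.531% of the other *mbd9-1* sites. Within protein-coding genes, 611 of the 821 centres were in coding exons (74.4%), 138 in introns (16.8%), 50 in 5′ UTRs (6.09%) and 16 in 3′ UTRs. At the other *mbd9-1* sites coding exons took 78.1% and 5′ UTRs 3.21%.

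When the sites were built without *mbd9-1* replicate 3, 91.2% (88.7% to 93.2%) of those without WT peaks were in protein-coding genes, against 90.6% of the others, and 2.44% were in pseudogenes, against 5.15%. Without replicate 1 the shares were 88.4% in protein-coding genes, against 88.8%, and 5.06% in pseudogenes, against 6.31%. Without replicate 2 they were 77.6%, against 88.9%, and 10.6%, against 6.15%. The higher share in pseudogenes was thus not seen without replicate 1 or without replicate 3, and the share in protein-coding genes was then close to that of the other sites. The share elsewhere without replicate 3 was 1.14%, against 0.332%.

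The place of a site went with the replicates that supported it. Of the 140 sites from replicates 1 and 3, 88 were in protein-coding genes (62.9%, 54.6% to 70.4%) and 26 in pseudogenes (18.6%). The other *mbd9-1* sites with the same support had 87.6% (82.5% to 91.4%) in protein-coding genes and 8.10% in pseudogenes. For pseudogenes the difference was smaller or turned round with other support. Sites from replicates 1 and 2 had 1.39% in them, against 3.38% of the other sites of that support, those from replicates 2 and 3 had 6.67%, against 6.55%, and those of all replicates 3.03%, against 5.76%. Sites from 1 list had 10.5%, against 6.87%. Sites from replicates 1 and 2 were in protein-coding genes in 332 of 361 cases (88.7% to 94.3%), against 92.8% of the other sites of that support, and those of all replicates in 93.3%, against 89.2%. The 5 chromosomes were also cut into windows of 1 Mb, and the 24 of 121 windows with less than 40% of their length in protein-coding genes were called gene-poor. These held 109 of the sites without WT peaks (11.3%), against 6.51% of the other *mbd9-1* sites and 5.01% of the WT sites without *mbd9-1* peaks. By support the share was 30.7% for replicates 1 and 3 (43 of 140, 23.7% to 38.8%), against 21 of the 210 other sites with this support (6.63% to 14.8%). It was 4.43% for replicates 1 and 2, against 4.77%, and 9.70% for all replicates, against 6.73%. Without *mbd9-1* replicate 3 the share in gene-poor windows was 5.85% (4.26% to 8.00%), against 5.81% of the other *mbd9-1* sites, so that the excess was not seen there. It was 9.16%, against 7.63%, without replicate 1 and 18.8%, against 7.52%, without replicate 2. Among the 62 sites in pseudogenes 42 (67.7%) were in gene-poor windows, against 30.4% of the other *mbd9-1* sites in pseudogenes.

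**Figure D3:**
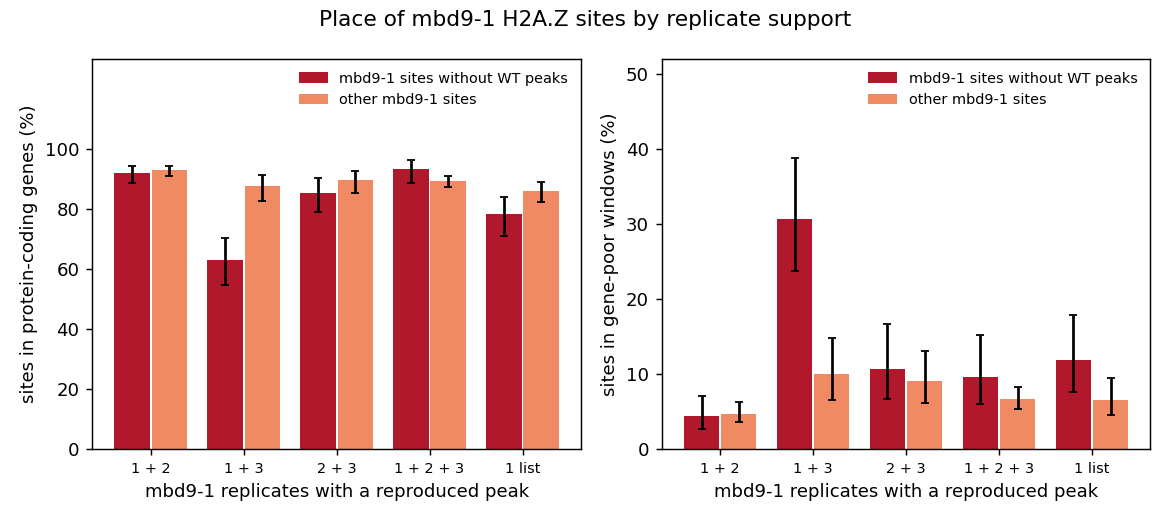
Percentage of sites in protein-coding genes (left) and in gene-poor windows of 1 Mb (right) by the *mbd9-1* replicates that gave reproduced peaks, for the sites without WT peaks and the other *mbd9-1* sites, with 95% Wilson intervals. Sites from replicates 1 and 3 have 62.9% in protein-coding genes and 30.7% in gene-poor windows when no WT peak touches them.

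Around the TSS the sites were less concentrated than the others. The centre of 538 (55.6%, 52.4% to 58.7%) was within 1000 bp downstream of the nearest TSS, against 68.5% of the other *mbd9-1* sites and 68.0% of the WT sites without *mbd9-1* peaks. It lay over 1000 bp downstream for 248 (25.6%), against 17.3% and 14.9%, and upstream for 182 (18.8%), against 14.1% and 17.1%. Without *mbd9-1* replicate 3, 64.2% (60.4% to 67.9%) of the sites lay within 1000 bp downstream, against 70.5% (68.7% to 72.3%) of the other *mbd9-1* sites. The shares were 57.3%, against 66.8%, without replicate 1 and 51.5%, against 67.7%, without replicate 2, so that the sites without WT peaks had the lower share in each case. When the gene bodies around the 821 centres were cut into 5 equal bins from the start, the sites without WT peaks counted 253, 202, 182, 118 and 66. These were 30.8%, 24.6%, 22.2%, 14.4% and 8.04%, against 29.9%, 28.7%, 22.0%, 13.3% and 6.03% over all *mbd9-1* sites. The fall toward the gene end was thus common to all *mbd9-1* sites. The genes at the site centres, counted once per site, were also rather long for the sites without WT peaks. Their median length was 2441 bp, against 2166 bp for the other *mbd9-1* sites and 2195 bp for the WT sites without *mbd9-1* peaks.

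**Figure D4:**
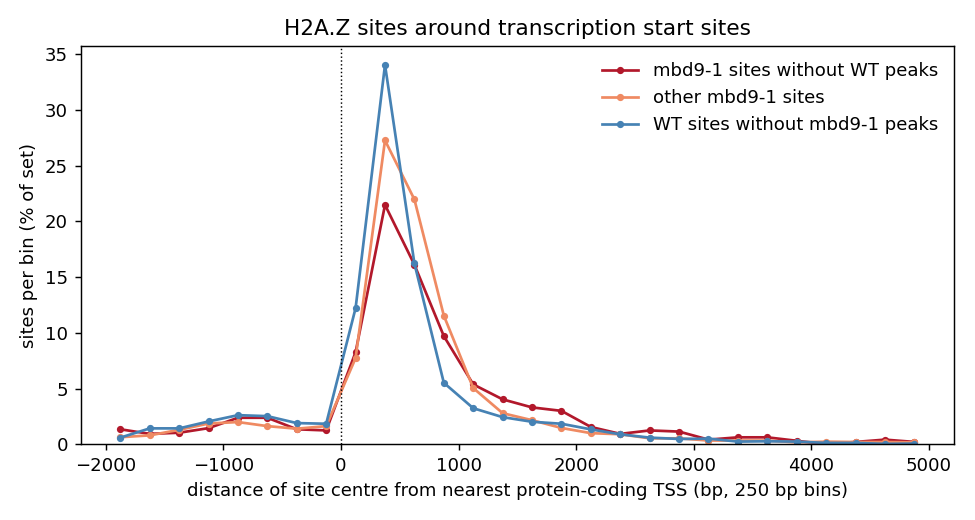
Percentage of sites in each 250 bp bin (y axis) by the distance of the site centre from the nearest protein-coding TSS (x axis, positive downstream), for the sites without WT peaks, the other *mbd9-1* sites and the WT sites without *mbd9-1* peaks. Within 1000 bp downstream lie 55.6%, 68.5% and 68.0% of the sites in that order.

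H4Ac in WT was found at a minority of the sites. At least 50% of the length was under H4Ac peaks in no library for 765 sites, in 1 for 45, in 2 for 67 and in 3 for 91. With 2 libraries asked for, 158 sites (16.3%, 14.1% to 18.8%) carried H4Ac, where the share over all *mbd9-1* sites was 13.2%. It was 12.2% (11.1% to 13.5%) at the other *mbd9-1* sites and 31.2% (29.6% to 32.8%) at the WT sites without *mbd9-1* peaks. The sites without WT peaks therefore stood nearer to the other *mbd9-1* sites than to the WT sites that *mbd9-1* lists lacked. The other 4057 WT sites, which shared a base with an *mbd9-1* peak, had 16.1% (15.0% to 17.3%), close to the sites without WT peaks. With all 3 libraries asked for, the values were 9.40% at the sites without WT peaks and 9.06% at the other *mbd9-1* sites. They were 26.1% at the WT sites without *mbd9-1* peaks and 11.9% at the other WT sites. H4Ac replicates 1, 2 and 3 called 188, 131 and 133 of the sites (19.4%, 13.5% and 13.7%), where they called 15.7%, 11.9% and 12.6% of all *mbd9-1* sites, so that replicate 1 was highest in both.

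Most of the sites with H4Ac were near gene starts. Of the 538 sites within 1000 bp downstream of a TSS, 138 (25.7%, 22.1% to 29.5%) carried it, against 14.7% of the other *mbd9-1* sites at this position and 40.5% of the WT sites without *mbd9-1* peaks. Farther downstream it was 13 of 248 (5.24%, against 6.13% of the other *mbd9-1* sites), and upstream 7 of 182 (3.85%, against 7.75%). In 5′ UTRs it was 17 of 50 (22.4% to 47.8%, against 21.8%), in pseudogenes 2 of 62 (3.23%, against 7.45%), and outside genes 2 of 72 (2.78%, against 4 of 111). The share was thus higher than at the other sites near the TSS and not upstream or in pseudogenes. The call is a share of site length, and the sites without WT peaks were narrower. The part of width was not tested. By support, H4Ac was found at 23.0% of the sites from replicates 1 and 2, against 16.2% of the other sites of that support, and at 16.0% from replicates 2 and 3, against 14.5%. It was 10.7% from replicates 1 and 3, against 10.5%, 12.1% from all, against 9.21%, and 10.5% from 1 list, against 10.2%. The sites from replicates 1 and 2 had the highest share in both sets. The widest of the sites with H4Ac in every library was in HAM3 (AT4G00150), a GRAS transcription factor gene, where H4Ac replicates 1, 2 and 3 covered 99.6%, 83.4% and 91.7% of 1249 bp. *mbd9-1* replicates 1, 2 and 3 covered 100%, 61.7% and 42.0% of it. The next were in PDLP2, which encodes a plasmodesmata-located protein (1067 bp, H4Ac 62.1%, 56.8% and 71.6%), and AT5G65990, an amino acid transporter gene (1046 bp, H4Ac 100%, 100% and 86.6%). Both of these came from *mbd9-1* replicates 1 and 2 and had 0 in replicate 3.

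To set the comparisons against the spread between libraries, the reproduced peaks of each library were measured separately. A peak counts as reproduced only when another library of its genotype has a peak there, so the libraries share many of their places. All were also read against the same H4Ac lists. The SD and p-values below therefore do not rest on independent sets of peaks, and the SD may understate the spread between libraries. The H4Ac share of a library's peaks was averaged over the 3 H4Ac lists. In *mbd9-1* replicates 1, 2 and 3, 17.5%, 18.2% and 12.1% of the peaks in sites without WT peaks had H4Ac, against 13.2%, 13.8% and 11.4% of the peaks in other sites. The difference was positive in 3 of 3 libraries and averaged 3.16 percentage points ± 2.13 (SD, n = 3). An exact two-sided sign-flip test gave p = 0.25, the smallest that 3 libraries allow, and 0.333 after Benjamini-Hochberg adjustment over the 8 tests made here. The difference was -0.155 when *mbd9-1* replicate 2 was left out, and 0.204 when sites with under 50% of their length under WT peaks were counted as free of WT. With H4Ac called at 1 bp it was 1.49, at 80% of the length 3.19 and at the centre base 2.58.

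Peak centres lay in protein-coding genes for 84.5%, 90.6% and 79.9% of the peaks in sites without WT peaks, against 90.3%, 90.9% and 88.4% in other sites. This difference of -4.88 points ± 4.16 (SD, n = 3, exact p = 0.25, adjusted 0.333) was negative in every library but close to 0 in replicate 2. It turned to 0.337 without replicate 3 and to 0.583 when a peak in all replicates was required. The G+C content of the 400 bp around peak centres was 42.3%, 42.5% and 40.8%, against 43.1%, 43.2% and 42.7% in other sites. The mean difference of -1.12 points ± 0.676 (SD, n = 3, exact p = 0.25, adjusted 0.333) shrank to -0.291 without replicate 3. The median distance from the TSS was 504, 544.5 and 533.5 bp, against 497, 503 and 484 bp, a mean difference of 32.7 bp ± 22.6 (SD, n = 3, exact p = 0.25, adjusted 0.333) that was 0.5 bp when all lists were cut to equal length by width.

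The contrast with the WT peaks that *mbd9-1* lacked was larger for H4Ac and distance. H4Ac was found at 15.9% ± 3.35 of the *mbd9-1* peaks in sites without WT peaks, against 31.7% ± 0.432 of the WT peaks in sites without *mbd9-1* peaks (SD, n = 3 libraries each). The WT values were 32.1%, 31.3% and 31.8%, and no *mbd9-1* library reached them. The other WT peaks, in sites that shared a base with an *mbd9-1* peak, had 16.9%, 17.5% and 16.5%. The WT peaks without *mbd9-1* peaks thus stood apart from the other WT peaks as well. Between *mbd9-1* and WT peaks without a counterpart, the difference of -15.8 points had p = 0.1 in an exact two-sided permutation test. This was the smallest p possible with 3 libraries against 3, and 0.333 adjusted. The difference stayed between -18.9 and -11.1 when an *mbd9-1* replicate was left out. The median distance from the TSS was 527 ± 20.9 bp in *mbd9-1* and 395 ± 3.21 bp in WT (SD, n = 3 each), a difference of 132 bp that also left no overlap between the libraries (exact p = 0.1, adjusted 0.333). The other WT peaks had medians of 474, 471 and 483 bp in WT replicates 1, 2 and 3, also above those of WT peaks without *mbd9-1* peaks. For G+C content the difference was 1.12 points (41.9% ± 0.921 in *mbd9-1* and 40.8% ± 0.288 in WT, n = 3 each, exact p = 0.3, adjusted 0.343). For protein-coding genes it was -3.58 points (85.0% ± 5.36 in *mbd9-1* and 88.6% ± 0.600 in WT, n = 3 each, exact p = 0.4, adjusted 0.4), and it turned to 2.90 without *mbd9-1* replicate 3 and to 1.04 when a peak in all replicates was required. No comparison of this size can pass a threshold of 0.05, and a p above it does not show that the sets were alike. As the H4Ac libraries and the WT H2A.Z libraries came from the same WT chromatin, what they share cannot be told apart from the genotype.

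**Figure D5:**
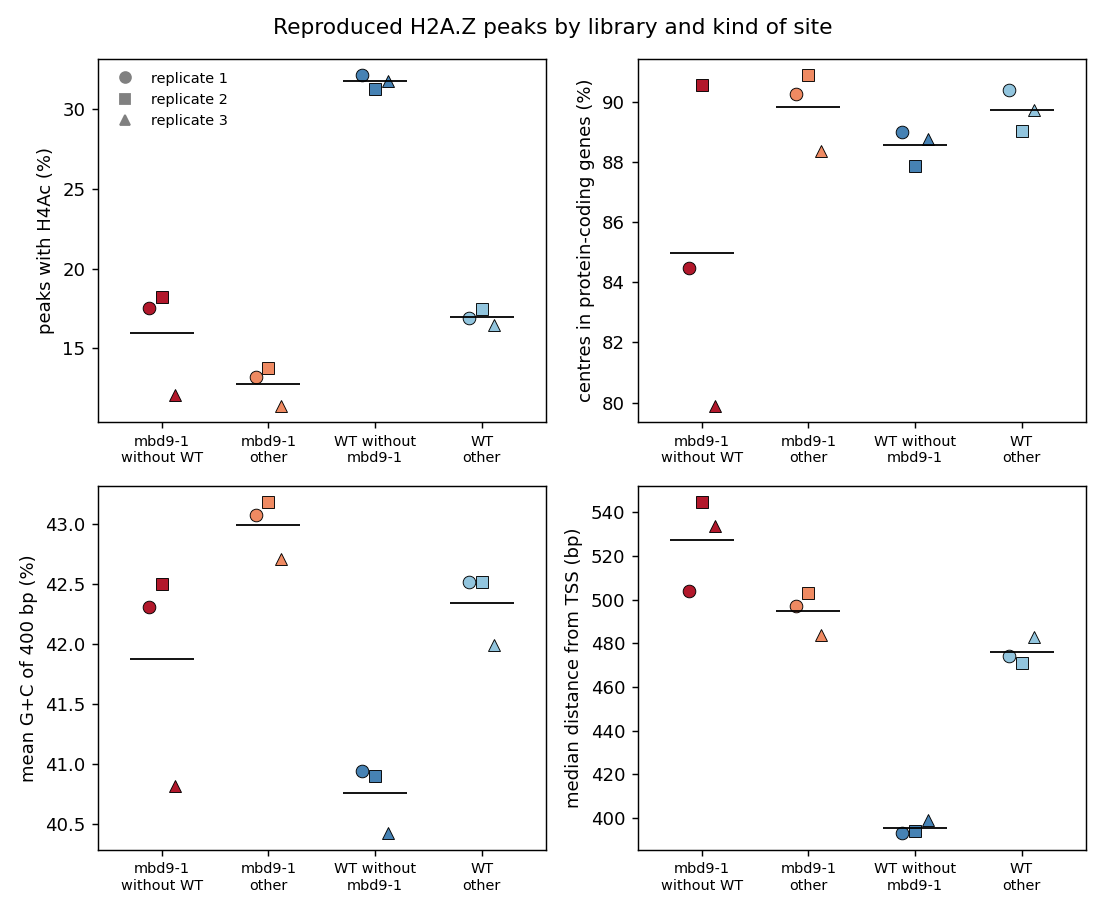
Share of peaks with H4Ac, share with their centre in a protein-coding gene, G+C content of the central 400 bp and median distance from the TSS (y axes, none starting at 0) for reproduced peaks of each library, by kind of site (x axis). Symbols are replicates and lines are means of 3 libraries. The H4Ac values of *mbd9-1* peaks without WT peaks (12.1% to 18.2%) lie below those of WT peaks without *mbd9-1* peaks (31.3% to 32.1%). Those of the other WT peaks (16.5% to 17.5%) do so too.

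The sites were scattered over many genes. The 821 sites in protein-coding genes fell in 797 genes, of which 776 held 1 site, 18 held 2 and 3 held 3. By the words of their RefSeq descriptions, 50 of the 797 (6.27%, 4.79% to 8.18%) were called kinases without matching the words for a receptor-like kinase. This compares with 4.79% of the genes with other *mbd9-1* sites and 4.17% of all protein-coding genes. The class follows wording only, so it can hold receptor-like kinases described simply as protein kinases. Transporters were 38 (4.77%), against 4.29% and 2.84%. Transcription factors were 25 (3.14%), against 3.91% and 3.18%. Disease resistance genes of the NLR kind, which encode intracellular immune receptors, were 12 (1.51%, 0.863% to 2.61%), against 0.766% and 0.619%. Receptor-like kinases, cytochrome P450 enzymes and pentatricopeptide repeat proteins had 12 genes each (1.51%, 0.863% to 2.61%). The genes with other *mbd9-1* sites had 1.303%, 1.379% and 0.996% in that order, all within this interval. All protein-coding genes had 0.853%, 0.794% and 1.03%. F-box proteins had 16 (2.01%, against 2.87% and 2.38%), and genes of unknown function 77 (9.66%, against 12.0% and 14.2%). No named class made up more than 10% of the genes. Photosystem genes, only 50 of all 27444 (0.182%), were absent, as they were from the other *mbd9-1* sites.

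The 3 genes with 3 sites were large. XIC (AT1G08730) encodes a class XI myosin, which moves cargo along actin, and spans 9040 bp. Its sites were centred 295, 6544 and 7537 bp from the TSS, and 1 of them came from a pair of replicates and the other two from 1 list each. AT2G19230, a leucine-rich repeat receptor kinase gene of 4980 bp, had its sites at 441, 3778 and 4436 bp, and ABCG33 (AT2G37280), an ABC transporter gene of 6489 bp, at 525, 2761 and 3650 bp. In both, the site nearest the TSS was supported by all *mbd9-1* replicates and the inner sites by 1 list each, and no site in the 3 genes had H4Ac. ABCG33 also made its surroundings 1 of the 4 windows of 100 kb with the most sites. These had 5 each, where the mean was 0.811 per window, and 627 of 1193 windows had any.

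Genes with known ties to H2A.Z and its processes held few such sites, at a rate near that of all genes. Of 58 genes listed for SWR1 and H2A.Z, flowering, phosphate, clock and light, salicylic acid defence and heat, 1 held a site without a WT peak, where 4 held another *mbd9-1* site and 16 a WT site. Over all 27444 protein-coding genes, 865 held a base of a site without a WT peak, 2893 of another *mbd9-1* site and 7009 of a WT site. The 1 gene was PCL1 (AT3G46640), also known as LUX, which encodes a MYB-type transcription factor of the evening complex of the circadian clock. *mbd9-1* replicates 1 and 2 covered 100% and 87.8% of its site of 674 bp, replicate 3 covered 0, and H4Ac replicates 1, 2 and 3 covered 58.9%, 67.4% and 0. MBD9 itself held no such site. Within 100 kb of it there were 2, in AT3G01516 and in AT3G01580, and replicate 3 covered neither. The mean over the genome was 0.811 such sites per window of 100 kb.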

How the data were processed

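H2A.Z and H4Ac were measured by ChIP-seq in biological triplicate. Bowtie2 was used by the authors to align reads to TAIR10, Samtools to filter them, and HOMER to call peaks per library (region option) against input. The samples hold a single input library for each genotype, so the lists of a genotype may share their background. The deposited lists hold chromosome, start and end only, with no score, count or p-value, and their starts were read as counting from 0. Libraries were assigned from their titles. The *arp6-1*, input and *mbd9-1* H4Ac libraries were not analysed here.

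Python 3.11.15 and NumPy 2.4.6 served to build the sites, and bedtools 2.31.1 gave the same 3981 sites and 968 sites without WT peaks. The steps were also tested on simulated lists. The overlap of 50% was taken of the peak's own length. Genes came from the RefSeq annotation of TAIR10.1, and every peak fitted within its chromosome there. Centres of sites decided their place, in a protein-coding gene first, then another gene, then 2000 bp upstream, then 1000 bp downstream. H4Ac was called at 50% of the length. Library values were compared by exact sign-flip and permutation tests (SciPy 1.17.1, matplotlib 3.10.9 for figures), and shares have 95% Wilson intervals. Depth is unknown from these lists. Sites named are the widest by support, the nearest to and farthest from WT peaks, the widest with H4Ac, those in listed genes or near MBD9, genes with 3 sites and the densest windows. The sites and gene lists were chosen with earlier results of these data known. Alternatives changed the overlap, merging, WT limit, H4Ac call, gene set, list length and replicates. One, dropping sites under an *mbd9-1* peak that reaches a WT peak, was chosen after seeing the data.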

Additional observations from a re-analysis of the deposited data

Results flagged for a closer look

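Peaks without a counterpart in the other genotype differed in their place from the remaining peaks in opposite directions. In *mbd9-1* their median distance from the TSS exceeded that of the other peaks by 7, 41.5 and 49.5 bp in replicates 1, 2 and 3, and in WT it fell short of it, by differences of -81, -77 and -84 bp. The contrast between the genotypes was 113.333 bp, with p = 0.1 in an exact two-sided permutation test of 3 libraries against 3, the smallest p possible. On the *mbd9-1* side the mean excess was only 0.5 bp when all lists were cut to equal length by width. Median peak widths also differed between the kinds of peak, at 495, 592.5 and 381 bp for *mbd9-1* peaks without WT peaks and 658, 461 and 547 bp for WT peaks without *mbd9-1* peaks, and the part of width in the contrast was not tested.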

How the results depend on the processing

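The number of sites changed most with the replicates. It was 388 to 615 when an *mbd9-1* replicate was left out, 1049 to 1332 when a WT replicate was left out, 211 when a peak in all replicates was required and 1567 when WT peaks found in 1 library were ignored. The share in protein-coding genes was 77.6% to 91.2% without an *mbd9-1* replicate, 91.5% with a peak in all replicates, 82.3% at an overlap of 1 bp between replicates, 92.6% for all annotated genes and 87.4% for any overlap with a gene. The share with H4Ac was 11.1% to 18.9% without an *mbd9-1* replicate and 10.2% to 12.5% without an H4Ac replicate, where both remaining libraries had to call the site. It was 12.3% with a peak in all replicates, 13.9% for sites under 50% covered by WT peaks, 19.9% for H4Ac calls at 1 bp and 10.5% at 80%.

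Against the other *mbd9-1* sites, the gene difference reversed to 0.583 points with a peak in all replicates and ranged from -13.0 to 0.337 without an *mbd9-1* replicate, and the H4Ac difference ranged from -0.155 to 5.87. Against WT peaks without *mbd9-1* peaks, the gene difference reversed to 1.04 with a peak in all replicates and ranged from -13.2 to 2.90. The causes were not tested. The other differences kept their direction under every alternative run, including the 1 chosen after seeing the data. The TSS distance against the other *mbd9-1* sites, however, differed by only 0.5 bp with lists of equal length. With a replicate block, in which libraries were paired by number, the differences were the same (-15.8 points for H4Ac, 132 bp for the TSS) with exact p = 0.25, the smallest that 3 pairs allow. The peak lists carry no read depth, so weak and strong peaks cannot be separated.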
